A study of Homo sapiens with 18 samples.

Results

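A set of 8 genes that act on chromatin and DNA methylation during DNA replication were followed in LNCaP, a human prostate cancer cell line whose growth responds to androgen. They were UHRF1, DNMT1, CDCA7, HELLS, CHAF1A, CHAF1B, ASF1B and WDR76, 8 of the 20045 genes that the platform annotation names, with 11 of the 47223 probes of the Illumina human expression array. The 8 genes were chosen by their response to the androgen dihydrotestosterone (DHT) and by how it looked with 2 antagonists on these same arrays, so the DHT responses are given as descriptions with their standard errors and without a test.

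The cells were kept in charcoal-stripped serum, which lacks steroids, and were treated for 24 h. The 18 arrays formed 6 groups of 3, namely DHT with MJC13, DHT with flutamide, DHT, MJC13 alone, flutamide alone and the vehicle DMSO. The sample labels give 10 nM for DHT, 1 µM for flutamide and 30 µM for MJC13, whereas the methods of the study give a lower concentration of DHT. Flutamide is an antiandrogen that competes for the hormone pocket of the androgen receptor, and MJC13 is a compound that acts on the receptor outside that pocket. LNCaP is one cell line with a mutated androgen receptor, and no source says whether the 3 replicates were separate cultures, so the errors cover the spread between these samples, which may be technical.

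When DNA is copied, the pattern of methylated cytosines has to be written onto the new strand and the new DNA has to be packed with histones. UHRF1 reads half-methylated sites and brings in DNMT1, the maintenance methyltransferase, while CDCA7 brings the remodeling ATPase HELLS to nucleosomes that block this work. CHAF1A and CHAF1B are subunits of chromatin assembly factor 1, which deposits new histones H3 and H4 behind the replication fork, and ASF1B is a chaperone that hands these histones over. WDR76 is a WD-repeat protein of chromatin with a less settled role. Several of these genes are known targets of E2F, the transcription factor family that drives entry into S phase.

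Promoter sequences were available in RefSeq (GRCh38.p14) for 7 of the 8 genes. The 250 bases before each annotated start were searched on both strands for 4 spellings of the E2F motif, TTTCCCGC, TTTCGCGC, TTTGCCGC and TTTGGCGC. At least 1 of them was found for 3 of the 7 genes (CDCA7, HELLS and UHRF1), in 4 of their 9 promoter windows, and in 979 of all 35116 windows (2.79%). Each spelling contains CG, and the 9 windows held 14 to 41 CG pairs, beside a median of 11 over all windows. The share over all windows is therefore not a background matched for CG content. For each of these 3 genes a stretch around its motifs is shown, with the matched letters in capitals, read 5′ to 3′ on the strand of the gene.
CDCA7: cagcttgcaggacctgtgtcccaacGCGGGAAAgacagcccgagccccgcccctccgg
HELLS: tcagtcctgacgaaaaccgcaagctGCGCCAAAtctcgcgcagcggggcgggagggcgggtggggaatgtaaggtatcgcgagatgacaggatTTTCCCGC
UHRF1: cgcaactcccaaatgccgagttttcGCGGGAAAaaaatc
The CDCA7 stretch is chr2:173354782-173354839, that of HELLS is chr10:94545687-94545787 and that of UHRF1, which belongs to 1 of its 3 annotated starts, is chr19:4909462-4909500, each on the plus strand. In CDCA7 the motif begins 65 bases before the start. HELLS holds a pair of matches, 1 beginning 76 bases before the start and 1 ending at the base before it, and UHRF1 holds 1 that begins 14 bases before the start and another upstream of its second start. A match is a description of the letters and does not show binding. The CCAAT box, CCAAT, was present in the windows of HELLS, CHAF1A, UHRF1 and ASF1B and in 11240 of all 35116 windows. The cell cycle motif CHR, TTTGAA, was present in that of ASF1B alone among the 7 genes and in 13.3% of all windows. The androgen receptor half-site AGAACA was found in none of the 7 genes' windows and in 12.4% of all windows.

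The arrays were first looked at as a whole. Of the 47223 probes, the 28334 with a mean above 6.31 on the log2 scale were tested, and 9 of the 11 probes of the 8 genes were among them, with at least 1 for each gene. The second probes of CDCA7 and UHRF1 were too dim and had means of 6.09 and 6.16. Luminal prostate markers were present, with 7 of 7 above the filter and a mean signal of 13.1 for FOLH1, while 0 of 4 basal markers (KRT5, KRT14, KRT15 and NGFR) passed it. Of 7 fibroblast markers 4 passed, the highest being COL1A1 with 7.72, and of 5 leukocyte markers 2 passed, CD68 with 9.38 and CD14 with 6.83, while PTPRC and CD3E did not. KLK2, a classical androgen target, gave 8.91, 8.78 and 9.18 with DHT against 6.60, 6.71 and 6.86 with DMSO, a difference of 2.23 (SE 0.28, limma adjusted p = 0.00181), and was called in 6 of 6 fits that left out 1 array. In both groups that received DHT with an antagonist, replicate 2 was the lowest of the 3 arrays in all 8 genes. It was not always the array furthest from the others, as in ASF1B with DHT and flutamide (9.83, 9.53 and 10.66), where replicate 3 was. The responses, the differences between the antagonists and the correlations are also given without replicate 2. All differences below are on the log2 scale of the normalized signal, and each gene is represented by its brightest probe unless 2 are named.

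The mean signal of all 8 genes was higher with DHT than with DMSO, by a median of 1.28 and from 0.27 for DNMT1 to 1.95 for ASF1B, beside a median of -0.01 over all probes tested. In all 8 genes the 3 DHT arrays lay above the 3 DMSO arrays, which held in that direction for 7.94% of all probes tested. In RNA from whole cultures, a larger share of cells in S phase and more RNA per cell cannot be told apart. CDCA7 and WDR76 passed an adjusted p of 0.05, a threshold that 0.176% of all probes passed upward, but the genes were selected on this contrast and nothing is read from that count. Neither gene passed in any of the 6 fits that left out 1 array.

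Among the genes of maintenance methylation, UHRF1 gave 12.37, 12.37 and 12.29 with DHT, against 11.18, 10.23 and 11.50 with DMSO. The difference of 1.37 (SE 0.30) is a 2.59-fold higher signal, and the DHT arrays lay close together while DMSO replicate 2 was well below replicates 1 and 3. Without that array the difference was 1.00. DNMT1, the brightest of the 8 genes with a mean of 13.15, gave 13.33, 13.33 and 13.52 with DHT and 13.11, 13.17 and 13.10 with DMSO. Its groups were apart by little, and the difference of 0.27 (SE 0.17) is 1.21-fold.

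CDCA7 gave 11.84, 11.83 and 11.96 with DHT, against 10.48, 10.45 and 10.64 with DMSO. This was a tight and wide separation, with a difference of 1.35 (SE 0.25), or 2.55-fold. HELLS, the ATPase that CDCA7 recruits, gave 10.43, 9.42 and 9.98 with DHT and 8.17, 9.03 and 8.94 with DMSO on its brighter probe. Both HELLS groups were scattered, so that the lowest DHT array exceeded the highest DMSO array by less than the range within either group, and the difference was 1.23 (SE 0.37). The other HELLS probe gave 9.12, 8.89 and 8.82 with DHT against 8.05, 7.64 and 8.22 with DMSO, a difference of 0.97 (SE 0.34).

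The subunits of chromatin assembly factor 1 had smaller responses. CHAF1A gave 9.35, 9.33 and 9.28 with DHT and 8.52, 9.04 and 8.46 with DMSO, a difference of 0.64 (SE 0.24). CHAF1B gave 11.13, 10.96 and 11.08 with DHT and 10.46, 10.61 and 10.36 with DMSO, a difference of 0.58 (SE 0.23). The CHAF1A signal was 1.56-fold higher, and for both subunits the DMSO array with the highest signal was replicate 2, the array that was lowest for UHRF1. ASF1B, the histone chaperone, gave 10.72, 10.69 and 10.70 with DHT, against 9.20, 7.87 and 9.19 with DMSO. Its difference of 1.95 (SE 0.41), or 3.85-fold, was the widest of the 8 genes, and DMSO replicate 2 was again the low array. Without that array the ASF1B difference was 1.51. WDR76, a dim probe, gave 7.98, 7.86 and 7.84 with DHT and 6.48, 6.63 and 6.59 with DMSO, a difference of 1.32 (SE 0.24). In both WDR76 groups the arrays lay close together.

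**Figure D1:**
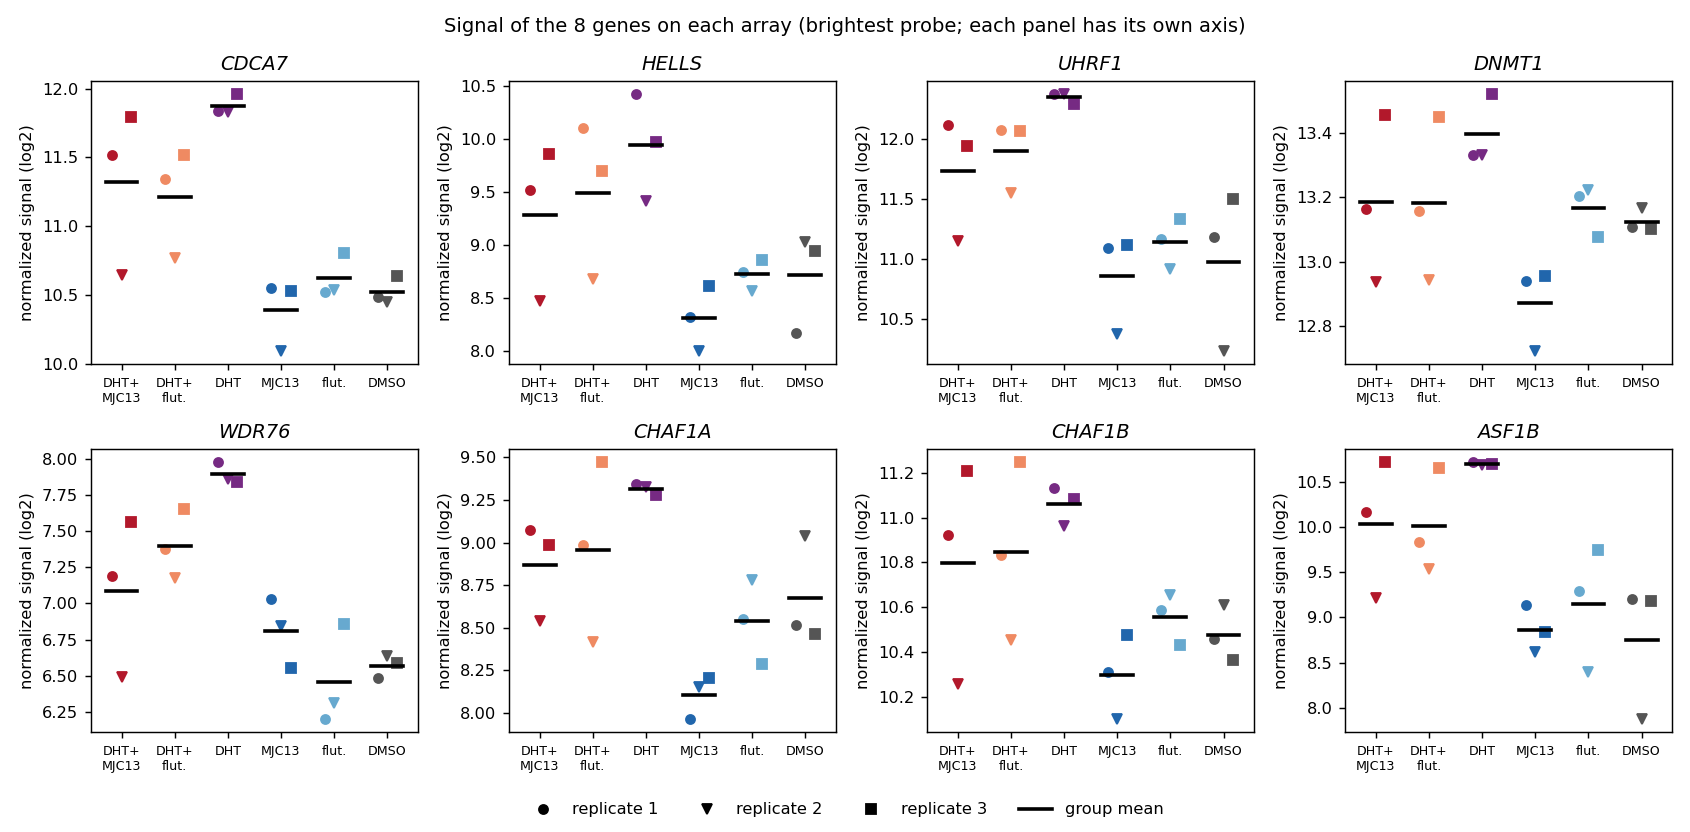
Normalized log2 signal (y axis) of the brightest probe of each of the 8 genes on each of the 18 arrays, by treatment group (x axis); symbols mark the replicate number and bars the group mean. The DHT arrays lie above the DMSO arrays in all 8 panels, and replicate 2 is the lowest array of both groups that received DHT with an antagonist.

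With an antagonist present the DHT response was measured against the antagonist alone. With MJC13 the median over the 8 genes was 0.82 (0.27 for WDR76 to 1.17 for ASF1B), and with flutamide it was 0.67 (0.01 for DNMT1 to 0.94 for WDR76), beside 1.28 without an antagonist. The mean was higher with DHT in 8 of 8 genes in both settings. The arrays did not overlap for 4 of 8 genes with MJC13 (CDCA7, UHRF1, CHAF1A and ASF1B), where 5.54% of all probes did the same upward, and for 2 of 8 with flutamide (WDR76 and UHRF1), where 3.72% did. The 3 responses share no array with each other. The 8 genes share every array, so they are not separate replicates of a treatment.

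**Figure D2:**
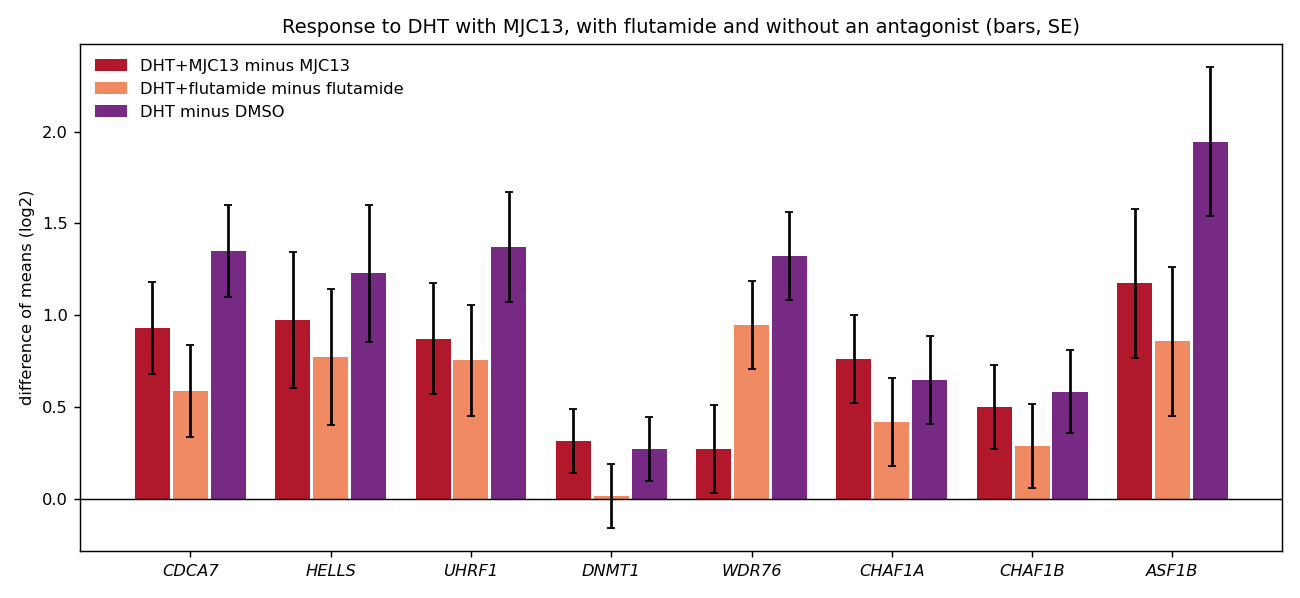
Difference of group means on the log2 scale (y axis) for each gene (x axis), for DHT with MJC13 minus MJC13, DHT with flutamide minus flutamide, and DHT minus DMSO; error bars are standard errors from the limma fit (3 arrays a group). ASF1B has the tallest bar without an antagonist (1.95), and over all 3 arrays WDR76 has 0.27 with MJC13 and 0.94 with flutamide.

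The arrays of the combinations were not alike. With MJC13 and DHT, CDCA7 gave 11.51, 10.64 and 11.80, against 10.55, 10.09 and 10.53 with MJC13 alone. With flutamide and DHT it gave 11.35, 10.77 and 11.52, against 10.52, 10.54 and 10.81 with flutamide alone. Replicates 1 and 3 of both combinations approached the DHT arrays of CDCA7 (11.83 to 11.96), whereas replicate 2 lay near the arrays without DHT. UHRF1 gave 12.12, 11.15 and 11.94 with MJC13 and DHT, against 11.10, 10.38 and 11.12 with MJC13 alone. It gave 12.07, 11.55 and 12.06 with flutamide and DHT, against 11.17, 10.92 and 11.33 with flutamide alone. Here too the second array was the low one in both combinations.

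ASF1B gave 10.17, 9.21 and 10.72 with MJC13 and DHT, against 9.13, 8.61 and 8.84 with MJC13 alone. With flutamide and DHT it gave 9.83, 9.53 and 10.66, against 9.30, 8.40 and 9.75 with flutamide alone. Replicate 3 of both combinations was at the level of the DHT arrays of ASF1B (10.69 to 10.72). CHAF1A gave 9.07, 8.54 and 8.99 with MJC13 and DHT, against 7.96, 8.15 and 8.20 with MJC13 alone, and 8.99, 8.41 and 9.47 with flutamide and DHT, against 8.55, 8.78 and 8.29 with flutamide alone. In the flutamide groups of CHAF1A, replicate 2 with DHT lay below 2 of the 3 arrays without it. CHAF1B, its partner subunit, gave 10.92, 10.26 and 11.21 with MJC13 and DHT, against 10.31, 10.10 and 10.47 with MJC13 alone, and 10.83, 10.45 and 11.25 with flutamide and DHT, against 10.59, 10.65 and 10.43 with flutamide alone.

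DNMT1 gave 13.16, 12.94 and 13.45 with MJC13 and DHT, against 12.94, 12.72 and 12.95 with MJC13 alone, and 13.16, 12.94 and 13.45 with flutamide and DHT, against 13.20, 13.22 and 13.08 with flutamide alone. The DNMT1 signals of both combinations coincided at each number to the decimals given, although the arrays were not duplicates (r = 0.983, 0.987 and 0.991 over all probes tested). HELLS gave 9.52, 8.47 and 9.86 with MJC13 and DHT, against 8.31, 7.99 and 8.61 with MJC13 alone, and 10.11, 8.68 and 9.70 with flutamide and DHT, against 8.74, 8.57 and 8.86 with flutamide alone. In DNMT1 and HELLS, too, replicate 2 was the lowest array of both combinations.

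Replicate 2 was the lowest of the 3 arrays in all 8 genes in the group given DHT with MJC13 and again in all 8 in the group given DHT with flutamide. Among all probes tested, 14.7% were lowest in that replicate of both groups. Measured over the mean of the matching group without DHT, the median response of the 8 genes was 1.05, 0.21 and 1.00 on the arrays with MJC13 and 0.70, 0.05 and 0.93 on those with flutamide, beside 1.36, 1.00 and 1.27 on the arrays with DHT alone. Measured in this way, replicate 2 of each combination had the smallest median response. When each array was set against the array of the same number without DHT, the medians were 0.99, 0.43 and 0.92 with MJC13, 0.68, 0.17 and 0.81 with flutamide and 1.27, 0.81 and 0.92 with DHT alone, so that replicate 2 was lowest in all 3 settings and the gap to the other arrays was narrower with both antagonists. The numbers were linked in the data for DHT with MJC13 and MJC13 alone, and not by the same rule for the groups with flutamide. Leaving out replicate 3 of the combination gave a median response of 0.69 with MJC13 and 0.48 with flutamide. Without replicate 2 of the combination it was 1.05 with MJC13 and 0.87 with flutamide. The CDCA7 response was then 1.27 with MJC13 and 0.81 with flutamide, and that of ASF1B was 1.58 and 1.09.

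Replicate 2 was low in related genes and, to a smaller degree, in other groups too. A score was taken for each array as the mean difference from the DMSO mean over the genes of a list. For the 8 genes it was 0.73, -0.01 and 0.97 with MJC13 and DHT, 0.74, 0.21 and 0.99 with flutamide and DHT, and 1.17, 1.00 and 1.11 with DHT alone. For the groups without DHT it was -0.06, -0.36 and -0.07 with MJC13, 0.06, -0.05 and 0.20 with flutamide, and -0.03, -0.10 and 0.12 with DMSO. Replicate 2 had the lowest score in 6 of 6 groups. A list of 43 S-phase genes, which encode replication factors, gave 0.58, -0.01 and 0.93 with MJC13 and DHT and 0.73, 0.11 and 0.91 with flutamide and DHT. A list of 26 G2/M genes, which act in mitosis, gave 0.43, -0.34 and 1.23 with MJC13 and DHT and 0.71, -0.20 and 1.26 with flutamide and DHT. In both lists replicate 2 was lowest and replicate 3 highest in 6 of 6 groups, the DMSO group included, where the G2/M score was 0.07, -0.50 and 0.43. A list of 10 androgen-responsive genes gave 0.85, 0.20 and 1.20 with MJC13 and DHT, and 0.77, 0.55 and 0.92 with flutamide and DHT. The part of the replicate number in the responses was not tested.

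**Figure D3:**
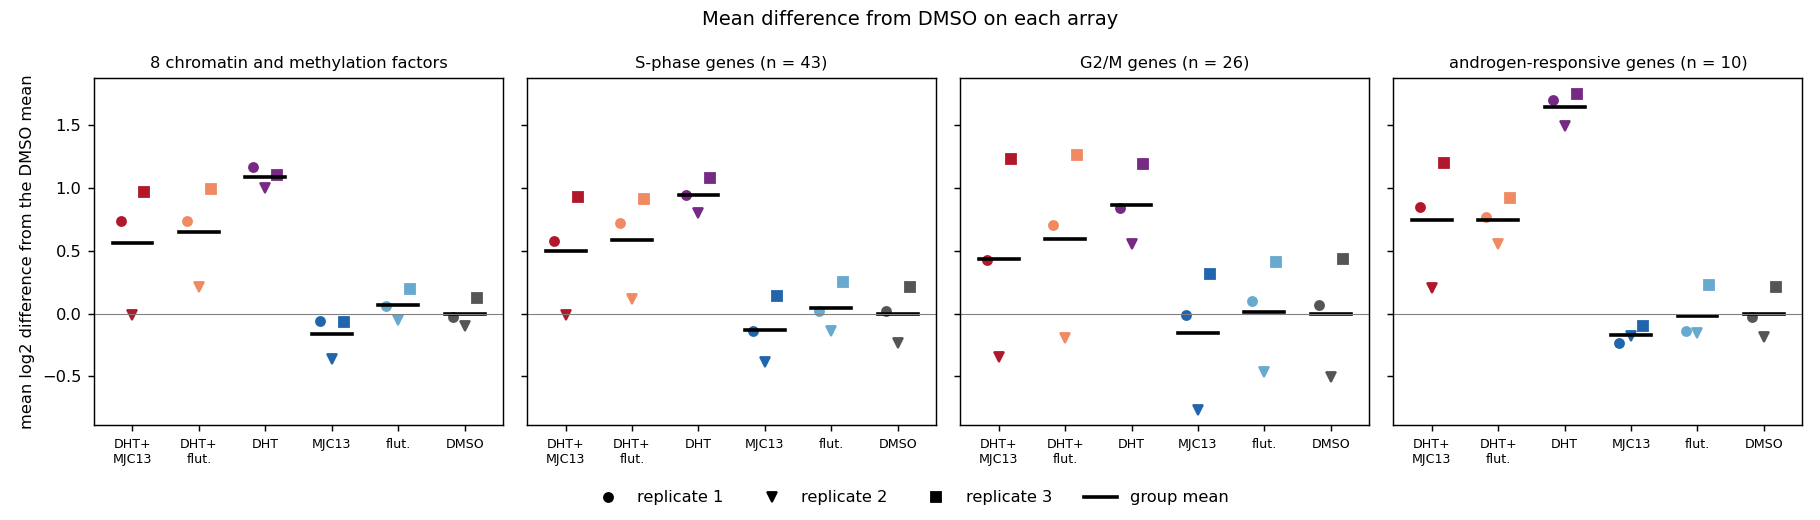
Score of each array (y axis, mean log2 difference from the DMSO mean) for the 8 genes, 43 S-phase genes, 26 G2/M genes and 10 androgen-responsive genes, by group (x axis); symbols mark the replicate number and bars the group mean. Replicate 2 is lowest in every group for the first 3 panels, and in the groups with DHT and an antagonist it falls to between -0.34 and 0.21 there.

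Set against DHT alone, all 8 genes had lower means with either antagonist. The median difference was -0.58 for DHT with MJC13, with 4 of 8 genes not overlapping (CDCA7, WDR76, UHRF1 and CHAF1A, beside 4.63% of all probes downward), and -0.45 for DHT with flutamide, with 4 of 8 not overlapping (CDCA7, WDR76, UHRF1 and ASF1B, beside 4.01%). WDR76 was 0.81 lower with MJC13 (SE 0.24) and 0.49 lower with flutamide (SE 0.24). CHAF1B was lower by 0.27 and 0.22 (SE 0.23 for both), about the size of its standard error. Both comparisons share the DHT arrays. The standard errors take no account of the replicate number, although same-numbered arrays of DHT and of DHT with flutamide deviated together (r 0.393, 0.549 and 0.392). Without replicate 2 of the combination, CHAF1B differed from DHT alone by 0.00 with MJC13 and by -0.02 with flutamide, and CDCA7 by -0.22 and -0.44. The median difference was then -0.25 with MJC13 and -0.19 with flutamide, and HELLS differed from DHT alone by -0.25 with MJC13 and -0.04 with flutamide. Leaving out an array of the combination cannot make separate groups overlap, so the same 4 genes in each comparison had to stay apart. Nothing is read from that count. The share of all probes apart downward was then 9.15% with MJC13 and 10.3% with flutamide.

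The responses with MJC13 and with flutamide differed by a median of 0.26 (MJC13 minus flutamide), and 7 of the 8 genes had the larger response with MJC13, by 0.12 to 0.34. This depended on single arrays. Without replicate 2 of DHT with flutamide the count was 5 of 8, with HELLS at -0.20 and UHRF1 at -0.05 and a median of 0.04, and without replicate 2 of DHT with MJC13 it was 7 of 8 with a median of 0.49. The median was 0.0101 without replicate 3 of DHT with MJC13. With all arrays, in the 7 genes the difference was below or not far above its standard error, for instance 0.34 (SE 0.36) for CDCA7 and 0.32 (SE 0.57) for ASF1B. WDR76 went the other way, with a difference of -0.67 (SE 0.34), or -0.38 without replicate 2 of DHT with MJC13, where its response with MJC13 was 0.57. WDR76 gave 7.19, 6.49 and 7.56 with MJC13 and DHT, against 7.03, 6.85 and 6.56 with MJC13 alone, and 7.38, 7.17 and 7.65 with flutamide and DHT, against 6.20, 6.31 and 6.86 with flutamide alone. Its MJC13 groups overlapped, and 2 of the 3 arrays with MJC13 alone exceeded all 3 DMSO arrays. Between the combinations themselves the 8 genes differed by a median of -0.07 (MJC13 minus flutamide), from -0.32 for WDR76 to 0.11 for CDCA7. That median was 0.16 without replicate 2 of DHT with MJC13 and -0.29 without replicate 2 of DHT with flutamide.

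MJC13 alone and flutamide alone were each compared with DMSO. The genes were not chosen by these contrasts themselves, but the arrays are the baselines of the responses above and so entered the choice. The p-values and intervals of the 8 genes are therefore not independent of that choice and serve as descriptions. Both comparisons were run with limma over all 28334 probes, with p-values adjusted over all of them. The 8 genes did not pass the test for MJC13 against DMSO or flutamide against DMSO, and 0% of all probes passed in either (635 and 730 probes had an unadjusted p under 0.05). CHAF1A had the lowest unadjusted p for MJC13 against DMSO, with 7.96, 8.15 and 8.20 on the MJC13 arrays and 8.52, 9.04 and 8.46 on the DMSO arrays. It was lower by 0.57 (95% interval -1.07 to -0.06, unadjusted p = 0.0290 and adjusted p = 1.00, limma), and the groups did not overlap. DNMT1 had 12.94, 12.72 and 12.95 with MJC13, against 13.11, 13.17 and 13.10 with DMSO, also without overlap, and differed by -0.25 (95% interval -0.62 to 0.11, adjusted p = 1.00, limma). CHAF1A and DNMT1 were the 2 of 8 genes whose MJC13 arrays all lay below the DMSO arrays, beside 3.29% of all probes. Without DMSO replicate 2, the highest DMSO array of CHAF1A, its difference was -0.38.

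MJC13 alone against flutamide alone is part of the difference between the antagonists by which the genes were chosen, so its values are a description. Over all probes 0% passed an adjusted p of 0.05 and 4.33% had all MJC13 arrays below the flutamide arrays. CHAF1A and DNMT1 were the 2 of 8 genes in that position, with differences of -0.43 (SE 0.24) and -0.30 (SE 0.17). The MJC13 mean was lower in 7 of 8 genes, the exception being WDR76 with 0.36 (SE 0.24).

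Flutamide alone differed from DMSO by a median of 0.06, from -0.13 for CHAF1A to 0.39 for ASF1B, and the arrays overlapped in all 8 genes, whereas 4.91% of all probes did not overlap in one direction or the other. Without DMSO replicate 2 the difference of ASF1B was -0.05 and that of UHRF1 was -0.20, against 0.17 with all arrays. The intervals were wide, for example -0.46 to 1.25 for ASF1B and -0.32 to 0.41 for DNMT1, and that of DNMT1 includes a change of the size of the DNMT1 response to DHT (0.27).

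**Figure D4:**
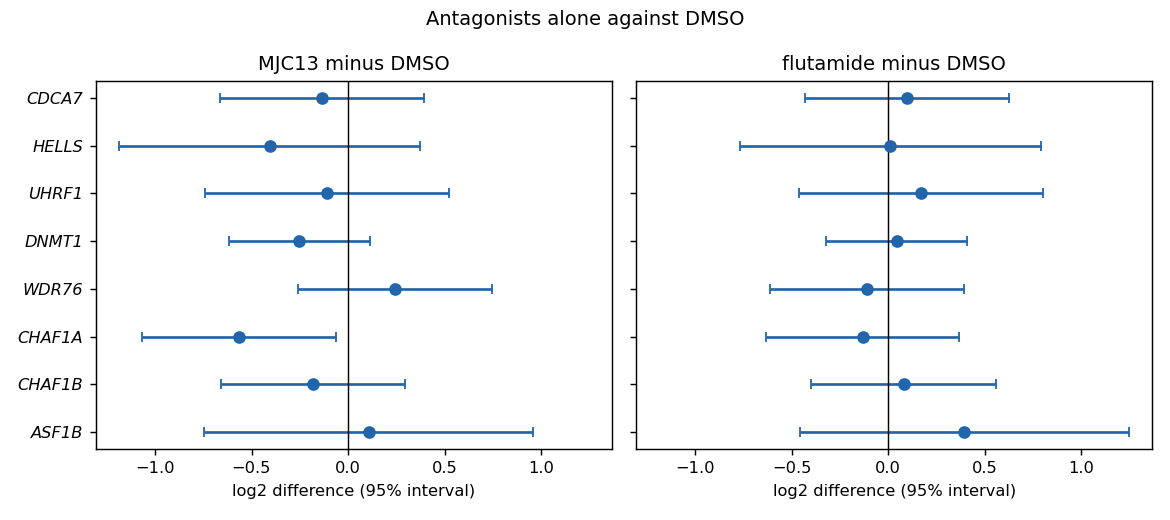
Difference of means (x axis, log2) with its 95% interval from limma for each gene (rows) in the 2 comparisons of an antagonist alone with DMSO, 3 arrays a group. CHAF1A with MJC13 against DMSO has the one interval that does not include 0 (-1.07 to -0.06), before adjustment over all probes. The arrays of both comparisons entered the choice of the genes.

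The signals of the 8 genes were correlated across arrays. Over their 28 pairs the correlation of the signals on the 18 arrays had a median of 0.81 (0.58 to 0.94), and after removal of the group means it had a median of 0.60 (0.02 to 0.93). These points share the arrays and their normalization. Without replicate 2 of both combinations (16 arrays, a setting chosen after seeing the data) the median was 0.81 for the signals and 0.15 within groups (-0.67 to 0.86), so the within-group values of most pairs rested largely on those 2 arrays. The closest pair within groups was DNMT1 and CHAF1B (0.93), followed by CDCA7 and CHAF1B (0.84), UHRF1 and ASF1B (0.82) and CDCA7 and DNMT1 (0.82). CHAF1A, by contrast, hardly followed UHRF1 (0.02) or ASF1B (0.05) within groups, although it followed its partner CHAF1B (0.81). Without those 2 arrays DNMT1 and CHAF1B had 0.86, CDCA7 and CHAF1B 0.40, CHAF1A and CHAF1B 0.63, and CHAF1A and UHRF1 -0.67. Single genes correlated with the mean of the 8 from 0.86 for DNMT1 to 0.98 for CDCA7. Within groups the mean of the 8 genes correlated with the S-phase score (0.95), the G2/M score (0.90) and the androgen score (0.88), and without those 2 arrays by 0.88, 0.92 and 0.75 in that order. Outside the 8 genes, the 10 whose signal was most like their mean over the 18 arrays were POLE2 (0.98), CDC45 (0.98), MCM6 (0.97), E2F2 (0.97), CHEK1 (0.97), GINS2 (0.96), RFWD3 (0.96), POLQ (0.96), MCM7 (0.96) and PARP2 (0.96).

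Other genes of the same pathways were counted for DHT against DMSO from lists that leave out the 8 genes. Of 15 DNA methylation genes tested, 11 had higher means and none was called, with a median of 0.19. LIG1, the ligase that seals new strands, had 0.93 (SE 0.27, limma adjusted p = 0.236), and the DNA glycosylase MBD4 had -0.39. PCNA, the replication clamp, had 0.72 (SE 0.38) on the brightest of 3 probes, where the arrays overlapped. The next PCNA probe gave 9.54, 9.91 and 9.95 with DHT against 8.54, 8.78 and 9.06 with DMSO, without overlap. The dimmest had means of 7.09 and 6.63. Among other paralogs and partners of the 8 genes, DNMT3A had 0.19 and DNMT3B 0.39 (the de novo methyltransferases), and UHRF2 had 0.43. CDCA7L had 0.17 and ZBTB24, an activator of CDCA7, had 0.22. By the brightest probe DNMT3B (SE 0.21) and UHRF2 (SE 0.24) were above DNMT1 (0.27), and PCNA, also a partner, was above CHAF1A (0.64) and CHAF1B (0.58). The DNMT3B order did not hold on every probe, since a dimmer one had means of 6.72 with DHT and 6.92 with DMSO. The UHRF2 arrays overlapped, with 9.92, 9.11 and 8.88 with DHT against 8.62, 8.97 and 9.02 with DMSO. The adjusted p-values of these paralogs and partners did not pass the threshold. ASF1A, the paralog of ASF1B, gave 11.20, 11.29 and 11.44 with DHT against 11.25, 11.14 and 11.33 with DMSO, a difference of 0.07, and RBBP4, the remaining subunit of chromatin assembly factor 1, also had 0.07. Of 24 histone chaperone genes 18 were higher and none was called, with a median of 0.17, and HJURP, the centromeric histone chaperone, had the largest difference at 1.33 (SE 0.41, adjusted p = 0.300), while UBN2 had the lowest at -0.20.

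Of 24 heterochromatin and remodeling genes 17 were higher and none was called (median 0.15), with ATAD2 at 1.18, the histone methyltransferase EZH2 at 0.93, SUV39H1 at 0.59 and EHMT2 at -0.38. Of 15 histone and histone-processing genes 5 were higher and none was called (median -0.06), with SLBP, the binding protein of histone messages, at 0.82 and the histone gene H2BC5 at -0.55. By contrast 43 of 43 S-phase genes tested (46 listed) were higher (median 0.96), and the DHT arrays lay above the DMSO arrays in 35 of them. Over all probes tested 7.94% were apart in this direction. CDC6, the helicase loader, was called (1.38, SE 0.24, adjusted p = 0.0172, limma), and in 2 of the 6 fits that left out 1 array. All 26 G2/M genes were higher (median 0.93), without overlap in 15, and none was called, with the mitotic kinase AURKB at 1.37 and the cyclin CCNB1 at 0.16. Among 25 genes of the E2F, RB and DREAM complexes 16 were higher (median 0.18), and CDK2 was called (1.11, SE 0.21, adjusted p = 0.0326, limma) and in 1 of the 6 fits that left out 1 array, and E2F2 had 1.48, beside a 2.82-fold higher signal of E2F7 that was not called (adjusted p = 0.126, limma) and -0.35 for the inhibitor CDKN1A. Of the 10 androgen-responsive genes 9 were higher (median 1.63) and 5 were called, beside 0.176% of all probes called upward. They were KLK2, TRPM8 (2.08), HERC3 (1.19) and the near-identical ORM1 (2.95) and ORM2 (2.53), whose probes may share signal. All these lists were chosen with earlier results of these data known, so their counts are descriptions.

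**Figure D5:**
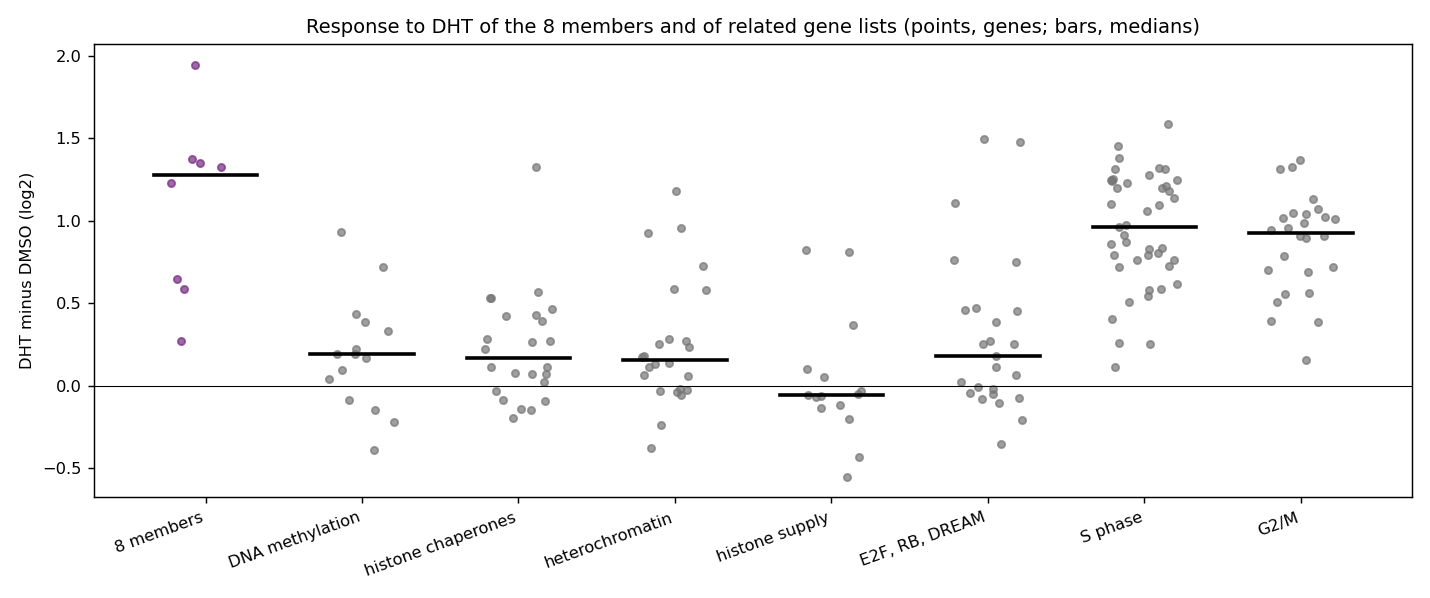
DHT minus DMSO difference (y axis, log2) of each gene of the 8 and of 7 related lists (x axis); points are genes, spread sideways for legibility, and bars are list medians. The medians of the 8 genes (1.28), the S-phase genes (0.96) and the G2/M genes (0.93) stand above those of the other DNA methylation, chaperone and heterochromatin genes (0.15 to 0.19); the 8 genes were chosen for this contrast.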

How the data were processed

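The authors' GenomeStudio signals were background-subtracted and quantile-normalized with lumi before deposit. The deposited log2 values ran from 5.81 to 14.82 with a median of 6.60 on each array. Whether that scale is plain or variance-stabilized is not given in the sources used here. The deposited table before normalization holds 36 columns that no label ties to a sample and was not used. Probes were named by the platform annotation, and the brightest probe stood for a gene. One mean per group was estimated over the 18 arrays in R 4.3.3 with limma 3.58.1 (12 residual degrees of freedom, probes above the 40th percentile of means, Benjamini-Hochberg adjustment, threshold 0.05) and was tested on simulated data. The number of arrays limits the precision. The 8 genes and the lists were chosen with earlier results of these data known. Named genes were all 8, each list's called genes or, with none called, up to 4 with its largest and smallest changes, paralogs and partners, KLK2 and the 10 most alike; E2F7 and CDKN1A were named after their values were seen. Replicate numbers follow the titles, and 11 of 18 sample descriptions give another number. Same-numbered arrays deviated together (each r above 0.1) for 5 of 15 pairs of groups. With DHT alone these were DHT with flutamide (r 0.393, 0.549 and 0.392) and flutamide alone (r 0.314, 0.152 and 0.180). The others were DHT with MJC13 and MJC13 (r 0.157, 0.404 and 0.253), flutamide with DMSO (r 0.174, 0.487 and 0.601) and MJC13 with DMSO (0.285, 0.104 and 0.231). In the comparisons of flutamide and of MJC13 with DMSO a block on the number called 0 probes as well. The standard errors given are from the fit without a block. Alternatives were the filter, the moderation, the fit, the block, the probe rule and leaving out arrays. Chip and scan batches were not given. Figures were drawn with matplotlib 3.10.9.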

Additional observations from a re-analysis of the deposited data

How the results depend on the processing

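For DHT against DMSO 54 probes were called, 2 of them for the 8 genes (CDCA7 and WDR76). The count was 33 without a filter and 35 with a filter at the 60th percentile. It was 87 in a fit of both groups alone and 469 with the replicate number as a block. Same-numbered arrays of DHT and DMSO had r of 0.0184, 0.0727 and 0.0953, below the 0.1 of the correlation rule. The S-phase and G2/M scores nevertheless had replicate 2 lowest and replicate 3 highest in both groups. Which fit is the better one was not tested. Leaving out each array gave 7 to 37 probes (7 and 10 without DMSO replicates 1 and 2, 24, 27 and 9 without DHT replicates 1, 2 and 3, and 37 without DMSO replicate 3), and no probe of the 8 genes was called in any of these 6 fits. In settings chosen after seeing the data, it was 32 without replicate 2 of all groups. It was 113 of all 28334 probes without replicate 2 of DHT with MJC13 and of DHT with flutamide. There, and with the block (469 of all 28334), 4 of the 8 genes were called (CDCA7, WDR76, UHRF1 and ASF1B). Without a filter none of the 8 genes was called. CDCA7 alone was called with the filter at the 60th percentile and without replicate 2 of all groups. WDR76 alone was called with the description number as a block (39 probes). The fit of both groups alone called CDCA7, WDR76 and ASF1B, and another moderation (66 probes) called CDCA7, WDR76 and UHRF1. The median response to DHT of the 8 genes was 1.12 to 1.35 when single arrays were left out, 0.860 with the mean over the probes of a gene and 0.972 over all 11 probes, where the dim second probes of CDCA7 and UHRF1 had 0.27 and 0.45. With MJC13 it was 0.495 with the mean over probes and 0.669 to 1.05 when single arrays were left out, and with flutamide (0.672) it was 0.392 and 0.484 to 0.868. The median difference between the antagonists (0.26) was 0.0101 to 0.494 when single arrays were left out, lowest without replicate 3 of DHT with MJC13 and highest without its replicate 2, and 0.0423 without replicate 2 of DHT with flutamide. The 3 comparisons without DHT had 0 calls under every alternative run.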
